A study of Mus musculus with 9 samples.

Results

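The genes described are 9 that mark successive stages of the oligodendrocyte lineage, namely Pdgfra, Cspg4, Olig1, Olig2, Sox10, Gpr17, Nkx2-2, Bcas1 and Enpp6. They were taken by name from 33984 annotated genes, and each was represented by the Ensembl transcript with the highest mean count over the 9 samples. Oligodendrocyte precursors are glial cells that keep dividing in the adult brain and tile grey as well as white matter. They carry the receptor PDGFRα and the proteoglycan NG2, and some of them leave the cell cycle and pass through a short premyelinating stage. Those that survive wrap axons with myelin. The transcription factors Olig1, Olig2 and Sox10 stay on through these stages, whereas the receptor and the proteoglycan are switched off.

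Samples were laser-captured pieces of piriform cortex, the primary olfactory cortex, from wild type C57BL/6 mice. The labels give the age as 8 weeks, and the study's methods give an older age. Layers A, B and C had 3 samples each, and the labels offer no key from these letters to numbered layers. Whether the samples of a layer came from separate animals, and whether equal replicate numbers mark a shared animal, is not stated, so the p-values measure the spread between these samples only.

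Total counts ranged from 23104306 to 76471683 per sample. The share of counts from mitochondrial ribosomal RNA was 55.3% to 70.2% among samples of layer A, 12.8% to 28.1% among those of layer B and 20.5% to 57.1% among those of layer C. Values are therefore given as normalized CPM, the deposited counts scaled to a common library size (CPM) with TMM factors, a correction for libraries in which a few RNAs take much of the depth. A count of 3, taken as the floor of detection, equalled 0.0256 to 0.254 normalized CPM, for counting error only. Layer B replicate 3 stood apart from the other samples of its layer. Its correlations of log2 values across transcripts were 0.888 and 0.880 with them, against 0.978 between those samples. Pairs within layer A had 0.894 to 0.913 and pairs within layer C 0.905 to 0.96, so lower correlations were not confined to layer B replicate 3. For the members, comparisons of layer A without it are given where they differ by over 1.5 times in fold or change a call. Overlaps of members that change without it are given too. For the gene lists, numbers without it are given in part.

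All 9 genes had their highest mean in layer A, an intermediate mean in layer C and their lowest mean in layer B. Between layers A and B, 8 of the 9 were higher in layer A at an adjusted p under 0.05 (quasi-likelihood test of edgeR, with the Benjamini-Hochberg method over 56416 transcripts), by 2.84-fold for Olig1 to 8.67-fold for Nkx2-2. Of all tested transcripts, 10.7% passed in that direction, 5.83% in the other and 16.5% in either. Between layers A and C, Pdgfra and Gpr17 passed, 2 of 9, where 6.98% of all tested transcripts were higher in layer A, 4.35% were higher in layer C and 11.3% passed in either direction. At an unadjusted p under 0.05, all 9 differed in the first of these comparisons, against 29% of transcripts, and 3 (Pdgfra, Cspg4 and Gpr17) in the second, against 24.5%. Between layers B and C none of the 9 passed in edgeR, and 0% of all transcripts did. There, 6 of the 9 had an unadjusted p under 0.05, against 4.11% of all transcripts, and 1, Cspg4, passed in DESeq2, which called 130 transcripts. In bulk tissue of this kind, fewer cells of a type and less RNA per cell cannot be told apart.

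**Figure D1:**
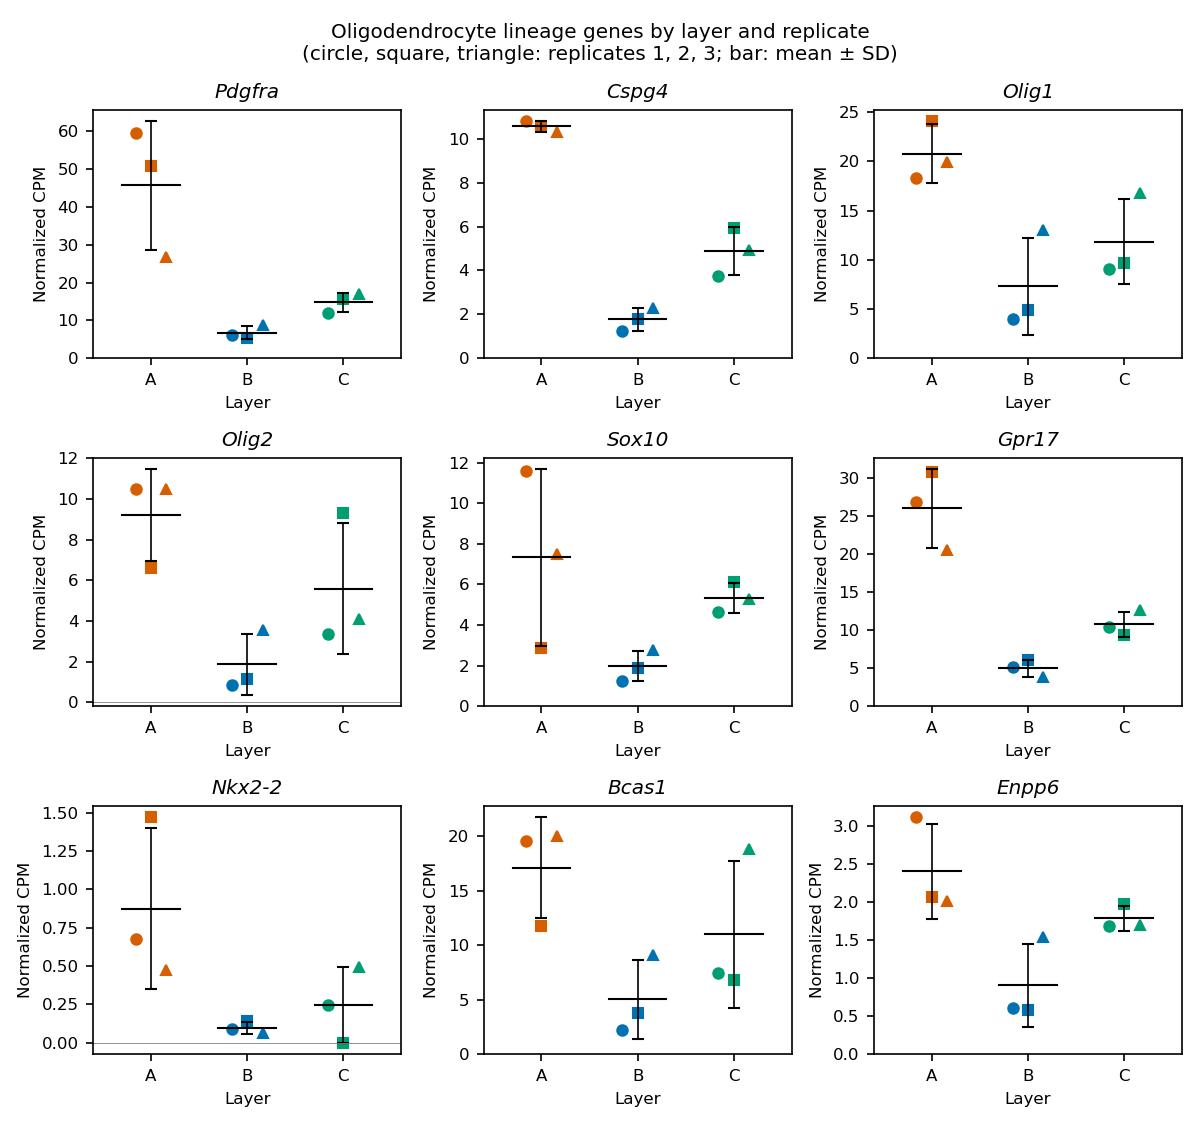
Normalized CPM of the 9 lineage genes (y axis, linear, own scale in each panel) in layers A, B and C (x axis). Symbols are the single samples, with circles, squares and triangles for replicates 1, 2 and 3, and bars give the mean ± SD (n = 3). In each of the 9 panels the 3 samples of layer A lie above the 3 of layer B. The layer C samples lie between or overlap them, except replicate 2 for Nkx2-2, which lies at 0, below all of layer B.

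The upstream sequences of Pdgfra and Enpp6 are shown because only their windows, of the 5 found, held no annotated exon. Between layers A and B, Pdgfra had the smallest p-value of the 9 and Enpp6 was the gene that did not pass. Whether these sequences bear on the layer differences was not tested. The sequences come from RefSeq on GRCm38.p6, the assembly also named mm10, and each is the window of 250 bases that ends just before the RefSeq start, written 5′ to 3′ on the strand of the gene. Capitals mark E-boxes (CANNTG), the letters bound by basic helix-loop-helix factors such as the OLIG proteins, and the SOX letters ACAAAG and ACAATG, searched on both strands. The Pdgfra window lies at chr5:75152001-75152250 on the plus strand, and the Enpp6 window at chr8:46986637-46986886 on the plus strand.
Pdgfra: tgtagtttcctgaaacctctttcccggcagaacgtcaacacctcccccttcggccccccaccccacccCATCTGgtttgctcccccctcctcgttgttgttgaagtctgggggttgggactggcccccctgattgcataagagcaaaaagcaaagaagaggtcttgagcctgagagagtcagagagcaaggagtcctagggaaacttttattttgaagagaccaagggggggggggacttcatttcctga
Enpp6: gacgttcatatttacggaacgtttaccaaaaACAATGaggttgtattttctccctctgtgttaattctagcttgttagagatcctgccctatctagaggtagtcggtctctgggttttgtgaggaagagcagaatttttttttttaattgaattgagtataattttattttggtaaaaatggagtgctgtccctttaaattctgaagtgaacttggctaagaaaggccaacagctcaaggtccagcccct
The Pdgfra window held 1 E-box, which starts 182 bases before the RefSeq start, and no SOX letters. The Enpp6 window held no E-box and 1 match to ACAATG, which starts 219 bases before the start. Neither match overlapped another searched motif. Windows were found for 5 of the 9 genes. Those of Nkx2-2, Cspg4 and Olig2 run into annotated exons and are not shown. They held 3, 0 and 0 E-boxes, and the Olig2 window also held 1 ACAATG. Among all 32851 windows of this length, 66.2% held CANNTG, 16.5% ACAAAG and 10.7% ACAATG. The GC content of the shown windows was 54.4% for Pdgfra and 38.4% for Enpp6, against a median of 52.4% over all windows.

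Among the surface molecules of precursors, Pdgfra encodes the receptor for PDGF-AA, the mitogen of these cells. Its transcript ENSMUST00000000476 lies on chromosome 5 from 75152306 to 75198215 and has 23 exons. Normalized CPM of 59.6, 50.8 and 26.8 were found for replicates 1, 2 and 3 of layer A, 6.29, 5.36 and 8.74 for layer B, and 11.9, 15.6 and 16.9 in layer C. The 3 layers did not overlap for this gene, although replicate 3 of layer A lay well below the other samples of that layer. The log2 fold change of layer A was 2.75 over layer B (standard error, SE, 0.362, edgeR adjusted p = 0.000273) and 1.62 over layer C (SE 0.348, edgeR adjusted p = 0.0093). Layer C exceeded layer B by a log2 fold change of 1.12 (SE 0.345), which did not pass (edgeR adjusted p = 0.753).

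Cspg4 encodes the NG2 proteoglycan, the other classical surface marker of precursors. Its transcript (ENSMUST00000035661, chromosome 9 from 56865033 to 56899870, 10 exons) had 10.8, 10.6 and 10.3 normalized CPM for layer A, the smallest relative spread of any member in any layer. It had 1.26, 1.78 and 2.29 for layer B and 3.75, 5.93 and 4.95 in layer C, again with no overlap between layers. The log2 fold change was 2.57 over layer B (SE 0.37, edgeR adjusted p = 0.000424). Between layers A and C it was 1.12 (SE 0.353), just outside the threshold in the same edgeR fit (adjusted p = 0.0536), and this call moved with the processing. Cspg4 passed in 9 of 19 alternatives, including one with the replicate number as block (adjusted p = 0.0469), one without layer B replicate 3 (adjusted p = 0.017) and DESeq2 (adjusted p = 0.0142), with adjusted p-values from 0.0142 to 0.25 over all of them.

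Olig1 and Olig2 encode basic helix-loop-helix transcription factors that specify the lineage, and their genes lie 41094 bases apart on chromosome 16. Olig1 (ENSMUST00000056882, 91269772 to 91271933, a single exon) had 18.3, 24.1 and 19.9 normalized CPM for layer A, 4.04, 4.9 and 13.0 for layer B, and 9.1, 9.63 and 16.8 in layer C. Layer A was above both other layers in every sample, while layers B and C overlapped through replicate 3 of layer B. Its log2 fold change over layer B was 1.51 (SE 0.429, edgeR adjusted p = 0.025), and that over layer C, 0.81 (SE 0.423), did not pass (adjusted p = 0.263). Without layer B replicate 3 the value over layer B was 2.27, and layers B and C no longer overlapped. With other single samples left out, that value fell as low as 1.25.
Olig2 (ENSMUST00000035608, 91225457 to 91228677, 2 exons) had 10.5, 6.61 and 10.5 normalized CPM for layer A, 0.854, 1.15 and 3.58 for layer B, and 3.36, 9.31 and 4.12 in layer C. One layer C sample, replicate 2, reached the range of layer A. The log2 fold change over layer B was 2.30 (SE 0.546, edgeR adjusted p = 0.00943). It was 3.25 without layer B replicate 3, when layer C was above layer B in every sample, and as low as 1.99 with other single samples left out. Over layer C it was 0.74 (SE 0.524, edgeR adjusted p = 0.44), which did not pass.

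Sox10 encodes an HMG-box factor required from the precursor stage through myelination. Its transcript (ENSMUST00000040019, chromosome 15 from 79154913 to 79164490, 4 exons) had 11.6, 2.87 and 7.51 normalized CPM for layer A, 1.26, 1.89 and 2.75 for layer B, and 4.64, 6.12 and 5.26 in layer C. Replicate 2 of layer A, with 43 counts, stood below all layer C samples, so the ranges of these layers overlapped. The log2 fold change was 1.89 over layer B (SE 0.477, edgeR adjusted p = 0.013) and 0.46 over layer C (SE 0.461, edgeR adjusted p = 0.615). The sign of that last value turned to -0.02 without layer A replicate 1.
Nkx2-2 encodes a homeodomain factor that rises as precursors begin to differentiate, and it was the sparsest member. Its transcript (ENSMUST00000067075, chromosome 2 from 147183083 to 147186404) had 8, 22 and 19 counts in layer A, 4, 6 and 3 for layer B, and 10, 0 and 58 in layer C. The count of 0 in layer C replicate 2 allows up to 0.191 normalized CPM. The log2 fold change over layer B, 3.12, had the largest standard error of the 9 (0.913, edgeR adjusted p = 0.0287). Its size rests on fewer than 10 counts in each layer B sample.

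Gpr17, Bcas1 and Enpp6 mark cells that have left the precursor state. Gpr17 encodes a G protein-coupled receptor of committed precursors that is lost before myelin forms. Its transcript (ENSMUST00000064016, chromosome 18 from 31942997 to 31949636) had 26.8, 30.8 and 20.5 normalized CPM for layer A, 5.1, 6.05 and 3.79 for layer B, and 10.4, 9.38 and 12.6 in layer C. The layers did not overlap. The log2 fold change was 2.39 over layer B (SE 0.327, edgeR adjusted p = 0.000313) and 1.26 over layer C (SE 0.315, edgeR adjusted p = 0.0184).
Bcas1 encodes a protein of premyelinating and early myelinating cells. Its transcript (ENSMUST00000013667, chromosome 2 from 170347148 to 170427828, 13 exons) had 19.6, 11.8 and 20 normalized CPM for layer A, 2.2, 3.76 and 9.12 for layer B, and 7.46, 6.76 and 18.8 in layer C. Replicate 3 was the highest sample in each layer, and that of layer C reached the level of layer A. The log2 fold change over layer B was 1.77 (SE 0.514, edgeR adjusted p = 0.0278), and 0.63 over layer C (SE 0.501, edgeR adjusted p = 0.498). Without layer B replicate 3 the value over layer B was 2.58, and layers B and C no longer overlapped. With other single samples left out, that value fell as low as 1.44.
Enpp6 encodes a choline-specific phosphodiesterase of newly forming oligodendrocytes. Its transcript (ENSMUST00000123066, chromosome 8 from 46986927 to 47093248) had 3.13, 2.07 and 2.02 normalized CPM for layer A, 0.606, 0.577 and 1.54 for layer B, and 1.69, 1.98 and 1.7 in layer C. Each layer A sample was above each sample of the other layers, but the log2 fold change over layer B of 1.39 (SE 0.486) did not pass (edgeR adjusted p = 0.0635). Without layer B replicate 3 it was 2.06 and passed (adjusted p = 0.00514 in the same test). With other single samples left out, it fell as low as 1.17.

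**Figure D2:**
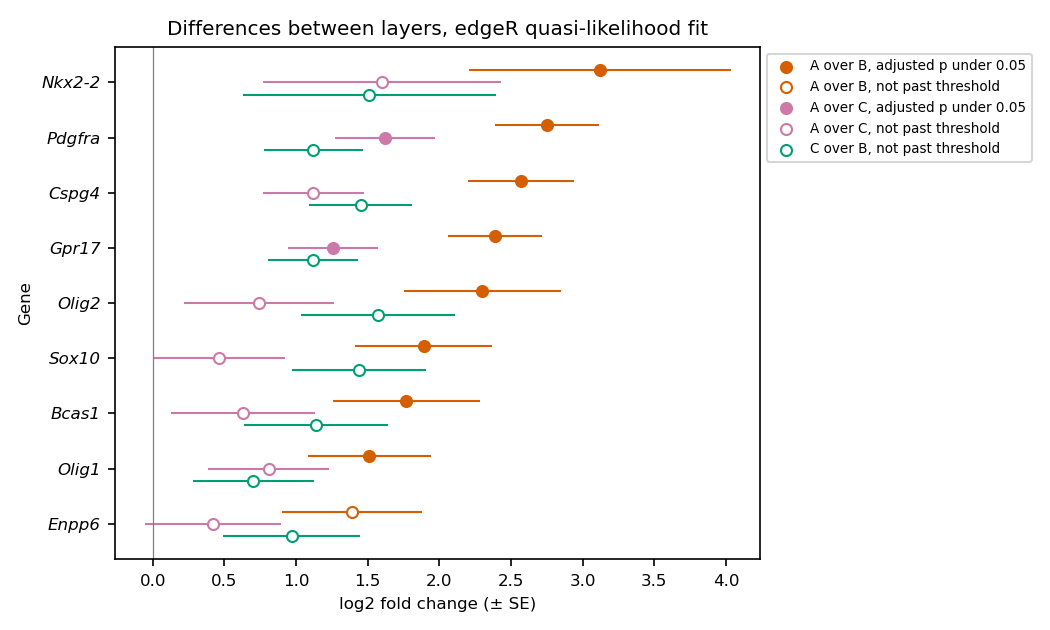
Log2 fold changes (x axis) of the 9 genes (y axis, ordered by the difference of layers A and B) from the edgeR fit to all 9 samples, for layer A over B, A over C and C over B, with bars of 1 standard error. Filled symbols passed an adjusted p of 0.05. The values of layer A over layer B run from 1.39 to 3.12, those of layer A over layer C from 0.42 to 1.62, with Pdgfra and Gpr17 filled, and those of layer C over layer B from 0.70 to 1.57, none filled.

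In terms of whole ranges, all 9 genes had every layer A sample above every layer B sample, a separation seen in 17.2% of tested transcripts. Against layer C, 5 of the 9 (Pdgfra, Cspg4, Olig1, Gpr17 and Enpp6) were separated with layer A higher, against 17% of transcripts. Layer C was above layer B in every sample for 5 of the 9 (Pdgfra, Cspg4, Sox10, Gpr17 and Enpp6), against 4.67% of transcripts, and the reverse was seen in 3.92% of transcripts and in no member.
The number of members past the threshold depended on single samples. Between layers A and B it fell from 8 to 4 without layer A replicate 1 or layer B replicate 1 and to 5 without layer B replicate 2, and it was 9 without layer B replicate 3. The calls over all transcripts moved too, from 9329 to 5570, 5759, 7165 and 11337 in these fits. Pdgfra, Cspg4, Olig2 and Gpr17 passed in all 9 of these fits. Olig1, Nkx2-2 and Bcas1 each passed in 5 and Sox10 in 7, and Bcas1 was also lost without layer A replicate 3, and Olig1 and Nkx2-2 without layer A replicate 2. Against layer C, the number was 1 without layer A replicate 1, layer A replicate 2 or layer C replicate 2, which left Pdgfra, and 0 without layer C replicate 1, where the adjusted p of Pdgfra was 0.0752 and that of Gpr17 was 0.103 in edgeR. It was 3 without layer B replicate 3. Calls over all transcripts in this comparison were 6389 with all samples, 2727, 3238 and 3785 in the fits that left 1 member, 1369 without layer C replicate 1 and 9740 without layer B replicate 3.

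A joint test of any difference among the 3 layers was passed by 5 members (Pdgfra, Cspg4, Olig2, Sox10 and Gpr17), against 14.3% of all transcripts. The adjusted p-values in this edgeR test ran from 0.00034 for Pdgfra to 0.159 for Enpp6. The number was 3 without layer A replicate 1, layer A replicate 3, layer B replicate 1 or layer B replicate 2, and 8 without layer B replicate 3 or layer C replicate 3. Calls over all transcripts went from 8061 to between 4070 and 6978 in the former fits, and to 11312 and 7236 in the latter.

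Levels of different genes were compared per length, as normalized CPM per kilobase of the chosen transcript (RPKM). In layer A the order was Olig1 with 9.61 ± 1.39 (SD, n = 3), Pdgfra with 6.98 ± 2.6, Bcas1 with 5.87 ± 1.57, Gpr17 with 5.01 ± 0.997, Olig2 with 3.64 ± 0.887, Sox10 with 2.7 ± 1.61, Enpp6 with 1.36 ± 0.354, Cspg4 with 1.3 ± 0.0249 and Nkx2-2 with 0.412 ± 0.248. Neighbours in this order overlapped in their sample ranges, except Cspg4 over Nkx2-2. Olig1 was also the highest in layer B with 3.38 ± 2.28 (SD, n = 3) and in layer C with 5.47 ± 1.98. Nkx2-2 was the lowest there, with 0.0457 ± 0.0182 and 0.116 ± 0.117. Pdgfra, in the second place in layer A, came after Bcas1 in both other layers, with ranges that overlapped.
The place of Enpp6 depends on which transcript is meant. Its coding transcript ENSMUST00000039840 is 4970 bases long and the chosen ENSMUST00000123066, annotated as a target of nonsense-mediated decay, is 1776 bases long, yet their counts differed by at most 1 in any sample. The counts of the chosen Pdgfra transcript and of ENSMUST00000168162 differed by at most 5, and those of the chosen Bcas1 transcript and of ENSMUST00000154650 by at most 8. Counts this alike cannot be assigned to one isoform. The 3 other coding transcripts of Bcas1 had log2 fold changes between layers A and B of 1.75 to 1.77, beside 1.77 for the chosen one. The 5 short noncoding transcripts of Bcas1 had values from 1.47 to 1.86, none of which passed (adjusted p from 0.0637 to 0.152 in edgeR). The libraries did not keep strand, and antisense genes overlap 16.3% of the Bcas1 transcript, 13.1% of Nkx2-2, 7.26% of Olig1 and 3.62% of Gpr17, so reads from those stretches cannot be told apart.

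The wider lineage was followed with lists of other genes. A list of 13 further precursor genes had 12 that could be matched to the annotation, and 7 of these were higher in layer A than layer B (median log2 fold change 2.08, against 2.30 for the 9 members and -0.12 over all tested transcripts). Against layer C, 3 of the 12 were higher in layer A, with a median of 1.05, against 0.81 for the members and -0.01 over all transcripts.
The 4 genes with the smallest p-values in the joint test were Ptprz1, Rlbp1, Vcan and Sox6. Ptprz1, a receptor phosphatase that astrocytes also make, had 293.2 ± 131.5 (SD, n = 3) normalized CPM for layer A, 53.4 ± 13.9 for layer B and 81.6 ± 17.5 in layer C. Vcan, which encodes the matrix proteoglycan versican, had 43.1 ± 17.8 (SD, n = 3), 6.68 ± 2.33 and 16.1 ± 6.18 in layers A, B and C. Its log2 fold change was 2.69 over layer B (edgeR adjusted p = 0.0006) and 1.43 over layer C (adjusted p = 0.0277). Sox6, a transcription factor that holds precursors undifferentiated, had 25.7 ± 14.4 (SD, n = 3), 3.76 ± 0.948 and 10 ± 3.46, and between layers A and C it did not pass (log2 fold change 1.35, edgeR adjusted p = 0.0534). Rlbp1, a retinoid-binding protein, had 11.5 ± 2.17 (SD, n = 3) in layer A and about the same level in layers B and C, 1.53 ± 1.14 and 1.54 ± 0.687.
Without layer C replicate 1, 1 of the 12 passed over layer C. Without layer B replicate 3, the precursor list had 8 of 12 genes higher in layer A than layer B and 5 higher in layer A than layer C, while 1 was higher in layer C, and the median over layer B was 2.75. Not all of the list pointed to layer A, as 2 of the 12 had values below 0 over layer B and 3 of the 12 over layer C, none of which passed. Named after their values were seen, these were Megf11 (-1.05 over layer B and -0.64 over layer C), Tnr, a matrix glycoprotein (-0.31 and -0.85), and Xylt1 over layer C (-0.28). For Tnr every layer C sample was above every layer A sample.

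Of 10 genes of committed and premyelinating cells, 5 were higher in layer A than layer B and 4 were higher in layer A than layer C, with medians of 1.56 and 0.39. The 4 with the smallest joint p-values were Tns3, Tcf7l2, Itpr2 and Bmp4. Tcf7l2, the Wnt effector of newly formed oligodendrocytes, had 11.8, 6.28 and 6.03 normalized CPM for layer A, 0.427, 0.947 and 0.77 for layer B, and 1.74, 2.55 and 1.83 in layer C. The layers did not overlap, and its log2 fold change was 3.48 over layer B (edgeR adjusted p = 0.000276) and 1.98 over layer C (adjusted p = 0.0101). Tns3, a focal adhesion protein, had log2 fold changes of 2.96 and 2.21 in the same comparisons (adjusted p = 0.000239 and 0.00267 in edgeR). Itpr2, an inositol trisphosphate receptor that astrocytes also express, had 2.84 and 1.81 (adjusted p = 0.000559 and 0.0116). Bmp4, a secreted ligand, had 3.70 and 2.88 (adjusted p = 0.00406 and 0.0201). Of the 10, 3 had values below 0 over layer B and 3 over layer C, none of which passed. Among these, named after their values were seen, Rras2 had -1.22 over layer B with every layer B sample above layer A, and Nfasc and Tmem163 had -0.87 and -1.04 over layer C with every layer C sample above layer A. Without layer C replicate 1, 1 of the 10 passed between layers A and C. Without layer B replicate 3, 6 were higher in layer A than layer B. Between layers A and C, 4 were then higher in layer A and 1 in layer C.
Of 12 further transcriptional regulators, 5 were higher in layer A than layer B and 3 were higher than layer C. The 4 with the smallest joint p-values were Sox9, Id4, Hes5 and Sox5. Sox9, Id4 and Hes5 are shared with astrocytes, and their log2 fold changes between layers A and C were 2.63, 2.59 and 1.96 (adjusted p = 0.00183, 0.0112 and 0.0158 in edgeR). Sox5, a partner of Sox6, was higher in layer A than layer B (log2 fold change 1.27, edgeR adjusted p = 0.0199) and had a log2 fold change of 0.25 over layer C (SE 0.341, edgeR adjusted p = 0.722). Without layer C replicate 1, 1 of the 12 passed between layers A and C. Without layer B replicate 3, 7 were higher in layer A than layer B and 4 were higher than layer C.

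Among 16 growth factors, receptors and signals that act on precursors, 9 were higher in layer A than layer B and 7 were higher than layer C. The latter number was 2 without layer C replicate 1, and both were larger, 10 and 8, without layer B replicate 3. The 4 with the smallest joint p-values were Fgfr2, Fgfr1, Notch1 and Fgfr3, receptors that other glia and vessels also express. Fgfr2 had 39.5 ± 17.7 (SD, n = 3) normalized CPM for layer A, 3.39 ± 1.41 for layer B and 7.36 ± 1.77 in layer C. Fgfr1 had log2 fold changes of 2.88 between layers A and B and 2.09 over layer C (adjusted p = 0.000369 and 0.005 in edgeR), Notch1 had 2.61 and 1.92 (adjusted p = 0.000919 and 0.00928), and Fgfr3 had 2.65 and 2.36 (adjusted p = 0.00174 and 0.00676).
The PDGF ligands were looked at after their values were seen. Pdgfa, whose product is the main ligand of PDGFRα, had no difference among layers past the threshold. It had 14.6, 7.21 and 11.3 normalized CPM for layer A, 7.95, 9.03 and 28.6 for layer B, and 20.4, 32.3 and 11.1 in layer C, with overlap among the layers (log2 fold change over layer B -0.46, standard error 0.495, edgeR adjusted p = 0.591). Pdgfd, a ligand of the related receptor PDGFRβ, was higher in layer A than layer B (3.62, edgeR adjusted p = 0.00149). The 1 gene of this list that was lower in layer A, named after its values were seen, was Lingo1, which encodes an inhibitor of differentiation found mainly in neurons. It had 41.9 ± 18.3 (SD, n = 3) normalized CPM for layer A, 133.2 ± 42.0 for layer B and 141.1 ± 34.9 in layer C.

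**Figure D3:**
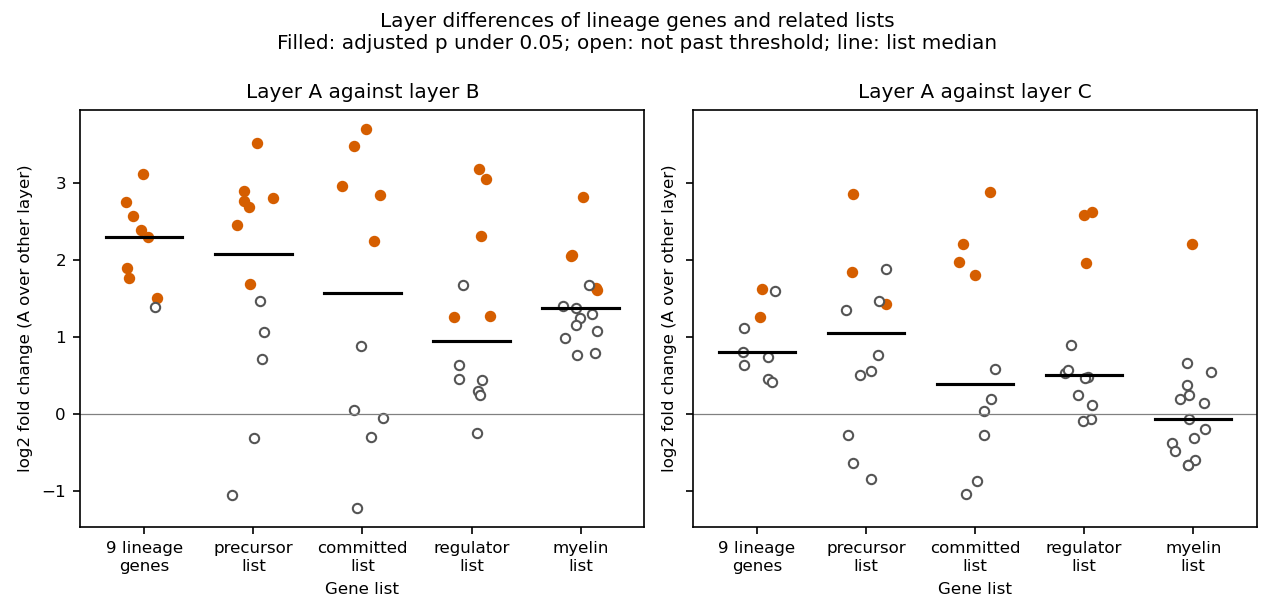
Log2 fold changes (y axis) of layer A over layer B (left) and of layer A over layer C (right) for the 9 lineage genes and the precursor, committed, regulator and myelin lists (x axis). Each point is a gene, filled where it passed an adjusted p of 0.05, and lines are list medians. The median of the myelin list is 1.37 on the left and -0.07 on the right, and that of the 9 genes is 2.30 and 0.81.

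The myelin genes, the products of mature oligodendrocytes, made up the comparison list nearest in the lineage. Of 15, 5 were higher in layer A than layer B (median log2 fold change 1.37) and 1 was higher in layer A than layer C (median -0.07). The number over layer B was 12 without layer B replicate 3, 3 without layer C replicate 1 and 10 with a replicate block. The number over layer C was 0 without layer C replicate 1. Without layer B replicate 3, 2 were higher in layer C than layer B, against 0 with all samples. The medians moved as well. Over layer B the myelin median was 2.58 without layer B replicate 3, where that of the 9 members was also 2.58, and 1.82 with the block, where that of the members was 2.39. Over layer C it turned to 0.44 with the block, beside 0.91 for the members, and was -0.44 without layer C replicate 1, beside 0.65. Against layer C, 7 of the 15 had values above 0 and 8 below, whereas all 9 members were above 0. The 2 myelin genes that passed in the joint test were Car2 and Mal. Car2, carbonic anhydrase 2, had 132.1 ± 95.2 (SD, n = 3), 18.7 ± 14.1 and 28.5 ± 0.917 normalized CPM in layers A, B and C. Mal, a myelin proteolipid, had 39.8 ± 11.6 (SD, n = 3), 9.49 ± 9.37 and 33.4 ± 18.
Precursor RNA was set against myelin RNA within samples by ratios that were chosen after values were seen. Pdgfra divided by Mbp, the gene of myelin basic protein, was 1.81, 0.942 and 0.268 for layer A, 0.351, 0.269 and 0.124 for layer B, and 0.228, 0.408 and 0.0877 in layer C. Layer A overlapped both other layers through its replicate 3. The mean log2 ratio of layer A was 1.94 higher than that of layer C (two-sided exact permutation test, p = 0.2, adjusted p = 0.54 over 9 ratio comparisons) and 1.76 higher than that of layer B (exact p = 0.3, adjusted p = 0.54). Olig2 divided by Mbp was 0.105 to 0.32 among layer A samples and 0.0477 to 0.0579 among those of layer B, without overlap, a log2 difference of 1.63 (exact permutation p = 0.1, adjusted p = 0.54). With 3 samples against 3 the smallest p this test allows is 0.1, so no ratio could pass it, and these p-values settle nothing about a difference.

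**Figure D4:**
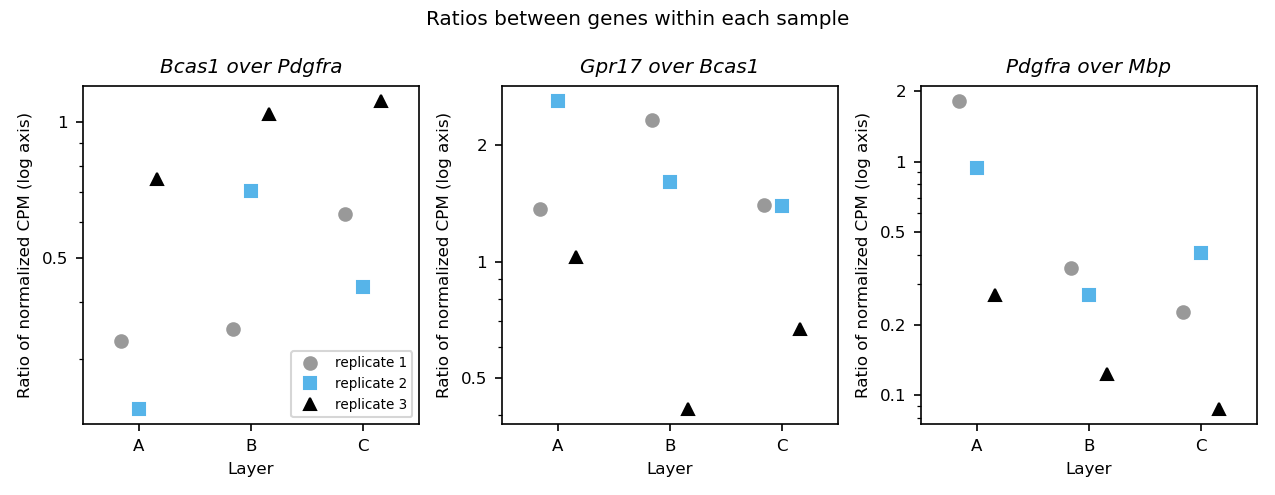
Ratios of normalized CPM within each sample (y axes, log scale) for Bcas1 over Pdgfra, Gpr17 over Bcas1 and Pdgfra over Mbp in layers A, B and C (x axes). Symbols mark replicates 1, 2 and 3. In each layer replicate 3 has the highest Bcas1 over Pdgfra and the lowest value of both other ratios.

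The members also varied in their proportions among samples of one layer. Bcas1 relative to Pdgfra was 0.747, 1.04 and 1.11 in replicate 3 of layers A, B and C, and 0.233 to 0.703 in the 6 other samples. Gpr17 relative to Bcas1 was lowest in replicate 3 of each layer, with 1.03, 0.416 and 0.671, against 1.37 to 2.6 elsewhere. The order of replicates was noticed in the data and carries no test. Replicate 3 also had the largest total count of each layer, and whether its samples share an animal or a preparation is not stated. The part of either in the ratios was not tested.
In layer B, replicate 3 had the highest layer B value of Pdgfra, Cspg4, Olig1, Olig2, Sox10, Bcas1 and Enpp6, and the lowest of Gpr17 and Nkx2-2. The summed myelin list was 290.3 normalized CPM in that sample, against 63.2 and 64.4 in the other samples of its layer.

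Markers of other cells moved with the layers as well. Of 12 astrocyte markers, 11 were higher in layer A than layer B, and so were 10 of 11 tested mural markers, 12 of 12 meningeal fibroblast markers, 9 of 10 endothelial markers and 10 of 12 microglial markers. Their median log2 fold changes were 2.93, 3.2, 5.10, 3.06 and 2.20, beside 2.30 for the 9 lineage genes. Without layer B replicate 3 these medians were 3.76, 4.17, 6.31, 3.76 and 3.01, beside 2.58. Over layer C, where 2 of the 9 lineage genes passed with a median of 0.81, 11 of 12 astrocyte, 10 of 11 mural, 12 of 12 meningeal, 8 of 10 endothelial and 7 of 12 microglial markers were higher in layer A. Their medians there were 2.3, 2.74, 4.13, 2.44 and 1.53. The calls of Pdgfra and Gpr17 over layer C thus stood beside higher markers of all 5 of these cell types in layer A. Without layer C replicate 1, the numbers over layer C were 7, 4, 8, 5 and 0, and 0 for the lineage genes. Without layer B replicate 3, those over layer B were 12, 11, 12, 9 and 11, and 9 for the lineage genes. Over layer C they were 11, 10, 12, 9 and 11 in that fit, and 3 for the lineage genes. Between layers A and B, 5 of 9 glutamatergic neuron markers were higher in layer B (6 without layer B replicate 3) and 1 in layer A. Their median was -1.39. Of 8 GABAergic markers, 1 was higher in layer A than layer B (3 without layer B replicate 3), with a median of -0.57 that turned to 0.70 without that sample. Between layers A and C, 5 of the 9 neuronal genes were higher in layer C and 1 in layer A, with a median of -1.17. Of the GABAergic markers, 2 were higher in layer C and 0 in layer A, with a median of -1.23. Without layer C replicate 1, 3 and 1 genes of these lists were higher in layer C and 0 of either in layer A. The part of these other cells in the layer differences of the members was not tested. No marker of these lists was at 0 in every sample.

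**Figure D5:**
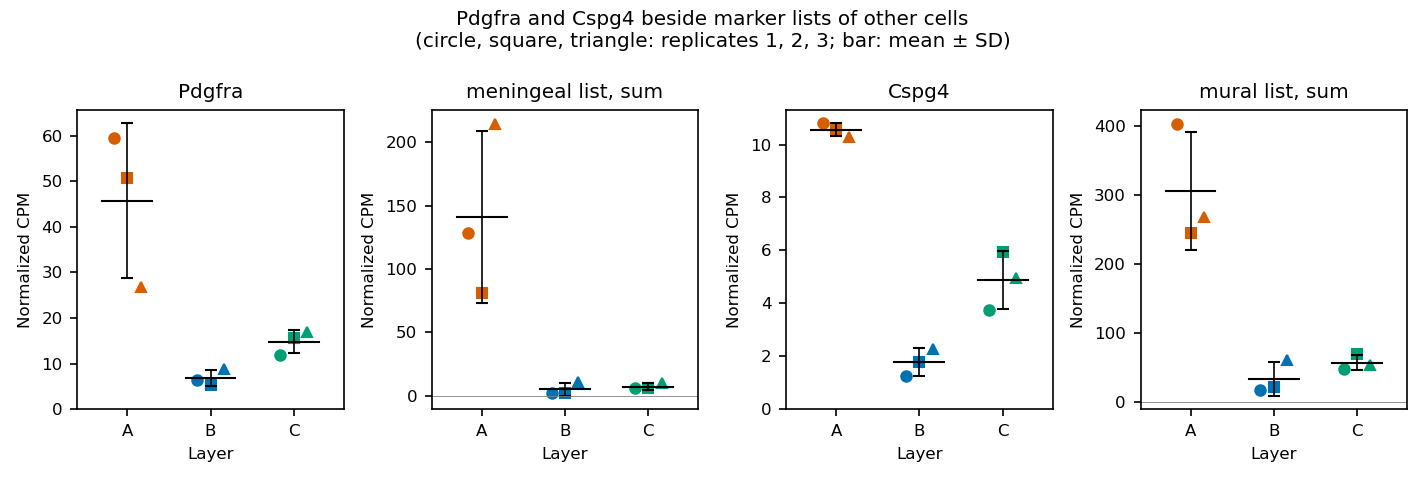
Normalized CPM (y axes, linear) of Pdgfra, of the summed meningeal fibroblast list, of Cspg4 and of the summed mural list in layers A, B and C (x axes). Symbols are replicates 1, 2 and 3 as circles, squares and triangles, with mean ± SD (n = 3). All 4 panels have their highest values in layer A, and in both list panels layer B replicate 3 lies at the level of layer C.

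Meningeal fibroblasts also express Pdgfra, and the mural cells of vessels also express Cspg4, so the sums of these marker lists are given beside both genes. The summed meningeal list was 128.2, 80.7 and 214.5 normalized CPM in replicates 1, 2 and 3 of layer A, where Pdgfra was 59.6, 50.8 and 26.8. It was 2.02, 2.08 and 10.4 for layer B, and 5.59, 5.8 and 9.9 for layer C. The sums of layers B and C overlapped through layer B replicate 3, and without that sample layer C was above layer B in the meningeal sum as in Pdgfra. The summed mural list was 402.8, 244.6 and 268.3 in layer A, where Cspg4 was 10.8, 10.6 and 10.3. It was 18, 21.9 and 61.4 for layer B, and 48.2, 69.1 and 54.4 for layer C, which again overlapped through layer B replicate 3 and were separate without it, as Cspg4 was. The astrocyte sum was 5005.6 to 10527.1 for layer A, 690.9 to 1182.5 for layer B and 1239.2 to 1702.9 for layer C, in the same order of layers as the 9 genes. The part of meningeal and mural RNA in the values of Pdgfra and Cspg4 was not tested.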

How the data were processed

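The authors laser-captured the layers, amplified the RNA, made strand non-specific libraries and aligned paired-end reads to mm10 with Bowtie. The deposited counts are raw read counts per Ensembl transcript, without normalization. The submitters' processing notes also name HTSeq 0.5.3, with no role. The Ensembl release and the handling of reads shared by transcripts are not given in the sources used here. Amplified reads without molecular identifiers are not independent molecules.

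Identifiers were joined to GENCODE M21 (GRCm38), which held 82807 of 95533 (86.7%). A transcript was tested when 3 or more samples held 10 or more counts (56416, all 9 members among them), with TMM scaling and the quasi-likelihood test of edgeR 4.0.16 in R 4.3.3, fitted to all 9 samples by layer and adjusted by Benjamini-Hochberg. Standard errors were obtained from each log2 fold change and the root of its F statistic. DESeq2 1.42.0, other scalings, filters, gene sums, a replicate block and each sample left out were alternatives. The methods were tested on simulated counts, for the comparison of layers A and B. At a simulated log2 fold change of 1, 0 of 200 changed transcripts passed, among 54611 tested. At 2, 58 of 198 (29.3%) passed, with 1 false call, among 54652 tested. In the data 9329 of 56416 transcripts passed between layers A and B. With so few changed transcripts the Benjamini-Hochberg cutoff is stricter in the simulation, so its rates do not measure the power of the real fits. A difference that did not pass is not shown to be absent. Replicate files differed beyond sampling noise in every pair. The text names all 9 members, their other transcripts with a mean count of at least 10, and up to 4 genes of each related list by the joint test. Members and lists were chosen with earlier results of these data known.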

Additional observations from a re-analysis of the deposited data

How the results depend on the processing

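Of the 508 log2 fold changes of members recomputed under alternatives, 471 kept their direction and side of the threshold, 20 lost the call, 16 gained it and 1 turned. The turned one was Sox10 between layers A and C, -0.02 without layer A replicate 1, where leaving out single samples gave -0.02 to 0.84. Leaving out each sample in turn gave 4 to 9 members called between layers A and B and 0 to 3 between layers A and C. It gave 3 to 8 among the 3 layers and 0 in every case for layers B and C. Calls over all transcripts in these fits, in the same order, were 5570 to 11337, 1369 to 9740, 4070 to 11312 and 0 to 17. DESeq2 called 8 among the 3 layers and 1 for layers B and C, where it called 10752 and 130 of 56416 transcripts. No filter on low counts also called 8 among the 3 layers, and 9698 of 79414 transcripts. The fit without layer B replicate 3 and with a replicate block, chosen after seeing the data, called 8 as well, and 10428 of 55684 transcripts. The cause of these differences was not tested. The replicate block on all 9 samples called 8 members for layers A and B, 3 for A and C, 0 for B and C, and 7 among the 3 layers. Of 56416 transcripts, it called 9184, 6384, 0 and 7903 in these tests. Whether the numbers pair the samples was not shown. Deviations of same-numbered samples from their layer means had correlations from -0.186 to 0.243 across transcripts (mean 0.0353). Those of differently numbered samples from different layers ran from -0.369 to 0.394 (mean -0.0138). RLE scaling moved the median log2 fold change of all transcripts by at most 0.019, and leaving out mitochondrial transcripts by at most 0.045. Nkx2-2 fell under the count filter, and was not tested, with at least 10 counts in all 9 samples and in the fits of layers A and B alone and of layers B and C alone. Its low counts and those of Enpp6 limit what these libraries can resolve.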

Other observations

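The genes whose profiles over the 9 samples were most like the mean standardised log2 profile of the 9 members were Csf1r, Carhsp1, Sema3e, Cgnl1, Utrn, Sparc, Tnfaip2, Rasgrp3, Nkd2 and Edn1. Their Pearson correlations ran from 0.971 to 0.982 among 15175 genes compared, as a description over samples that share 3 layers and their depth. Csf1r encodes the colony stimulating factor receptor of microglia and macrophages, and its means were 31.4, 7.51 and 13.5 normalized CPM in layers A, B and C. Sparc, a matrix glycoprotein, had 105.5, 24.3 and 41.7. Csf1r was in the microglial list, and none of these 10 was in the precursor, committed, regulator, signalling or myelin lists. Among the 36 pairs of members, correlations over the 9 samples ranged from 0.29 for Sox10 and Nkx2-2 to 0.946 for Olig2 and Enpp6, with a median of 0.828, and Pdgfra and Cspg4 had 0.944.

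Olig1 and Olig2, neighbours on chromosome 16, did not keep a fixed proportion. Olig1 divided by Olig2, in normalized CPM, was 1.74, 3.65 and 1.9 in layer A, 4.74, 4.24 and 3.63 in layer B, and 2.71, 1.03 and 4.07 in layer C.

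Zfp488, which encodes a repressor that works with Olig2, was among the committed genes whose level in layer C was near that of layer A. It had 3.47, 3.41 and 3.07 normalized CPM in layer A, 0.27, 0.831 and 0.978 in layer B, and 3.21, 4.59 and 1.94 in layer C. It was named after its values were seen. Layer A exceeded layer B by 2.25 on the log2 scale (edgeR adjusted p = 0.00737) and layer C by 0.04 (SE 0.484, edgeR adjusted p = 0.973).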
